A study of Mus musculus with 8 samples.

Results

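Epithelium of the hindstomach, the glandular part of the mouse stomach, was compared with epithelium of the forestomach, its squamous part, in mouse embryos at E16.5, late in gestation. The comparison rests on 4 of 8 poly(A) RNA-seq libraries, hindstomach replicates 1 and 2 and forestomach replicates 1 and 2, and the other 4, from proximal small intestine and colon, entered the estimate of the spread. Values are FPKM, fragment counts scaled by transcript length and by sequencing depth. Of the genes, 12013 of the 23393 listed gene symbols, those with at least 1 FPKM in at least 2 of the 4 stomach libraries, were tested. Per the labels' protocols all tissues came from untreated ShhCre;R26YFP/+ embryos, in which Cre recombinase made under control of Shh, a gene active in gut epithelium, switches on a yellow fluorescent reporter. RNA was taken from the released epithelium without sorting on that reporter. Hindstomach epithelium was shaken loose in 10 mM EDTA, whereas the forestomach was digested with Dispase for 15 minutes and its epithelium separated by hand (intestine and colon, 5 mM EDTA). Tissue and isolation therefore cannot be told apart. No label states that the replicates are from separate embryos, and the p-values thus cover only the library-to-library spread, part of which may be technical.

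The forestomach of the mouse is lined by a stratified squamous epithelium, in which basal cells divide, move upward while changing their keratins, and end as flat cells with a cornified envelope, a shell of cross-linked proteins beneath the membrane. The hindstomach is lined by a simple columnar epithelium that folds into glands with mucous, parietal, chief and endocrine cells. In the embryo the border between them forms as basal squamous regulators such as Trp63 and endodermal regulators such as Gata4 and the Hnf4 factors come to be expressed on opposite sides.

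The forestomach libraries disagreed, so each result is given against both and against each alone. Over the 12013 genes, which do not count as independent replicates, Pearson's r of log2(FPKM + 1) was 0.977 between the hindstomach libraries and 0.689 between the forestomach libraries, and 260 (2.16%) and 3936 (32.8%) of the 12013 genes differed by 2-fold or more within the hindstomach and the forestomach pair. The library labelled forestomach replicate 1 held squamous and glandular transcripts together. In hindstomach replicates 1 and 2 the basal keratin Krt5 stood at 19.5 and 0.823 FPKM and the gastric tight junction gene Cldn18 at 337 and 339. In forestomach replicate 1 Krt5 stood at 167 FPKM and Cldn18 at 175, while forestomach replicate 2 had 2574 FPKM of Krt5 and 14.9 of Cldn18. Of 9 gastric glandular markers 8, all but Cldn18, were higher in forestomach replicate 1 than in either hindstomach library and lower in forestomach replicate 2 than in either. The markers of the labels' tissues were otherwise present: all 7 squamous markers were lower in both hindstomach libraries than in both forestomach libraries, and the general epithelial cadherin Cdh1 stood at 213 and 237 FPKM in the hindstomach against 166 and 199 in the forestomach. Squamous keratins differed between the hindstomach libraries too, with Krt13 at 91.8 and 5.33 and Krt4 at 67.3 and 2.68 FPKM in replicates 1 and 2. The 10 most abundant genes held 52.5% of all FPKM in forestomach replicate 1 and 17.4% in replicate 2, against 13.3% and 14.7% in the hindstomach. Total FPKM was 545227 and 378497 in the forestomach against 360655 and 357880 in the hindstomach. Calls against 1 forestomach library alone were made on the deposited scaling only. Relative depth, read from steps in the lowest values, was 0.95 and 0.43 of that of intestine replicate 1 in the hindstomach and 0.94 and 0.46 in the forestomach. These ratios are uncertain by a factor of 2, about the gap between replicates, so depth and replicate number may coincide in these 4 libraries.

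With all 8 libraries in the fit, 572 of 12013 genes were higher in the hindstomach (4.76%) and 176 were lower (1.47%), by limma. A call needed a 2-fold difference of log2(FPKM + 1) and a Benjamini-Hochberg adjusted p below 0.05. In every one of these genes both hindstomach libraries lay on the same side of both forestomach libraries, an order found in 5836 genes on the higher side (48.6%) and 1079 on the lower side (8.98%) of all those tested. A gene under 1 FPKM in both libraries of 1 tissue was tested only if both libraries of the other reached 1 FPKM. The filter thus fixed the direction of such a gene, though not whether it was called. Against forestomach replicate 1 alone 2380 genes were called higher (19.8%) and 749 lower (6.23%), and against forestomach replicate 2 alone 1778 were called higher (14.8%) and 943 lower (7.85%). Of the 572, 504 were called higher against each library alone, and of the 176, 166 were called lower against each alone. Another 47 genes were called higher against replicate 1 and lower against replicate 2, and 137 the other way round. List counts given below from a fit against 1 forestomach library alone are to be read beside the share of all genes in that fit. The lone library in such a fit is assumed to vary like the libraries of the other tissues, and the wide forestomach pair was pooled with 3 narrower pairs, so these p-values are too small for the forestomach. In simulated data that kept each tissue's own spread, the fit with all 8 libraries made 231 false calls over 12013 genes. With the 4 stomach libraries alone 86 genes were called higher and 21 lower, and without hindstomach replicate 1 or 2 the counts were 64 and 76 higher and 26 and 27 lower. With each of the 8 libraries left out in turn, 59 of the 572 and 26 of the 176 stayed called in all 8 fits. In bulk tissue fewer cells of a type and less RNA per cell cannot be told apart. With 2 libraries a side an exact permutation test of a single gene cannot go below p = 0.333.

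**Figure D1:**
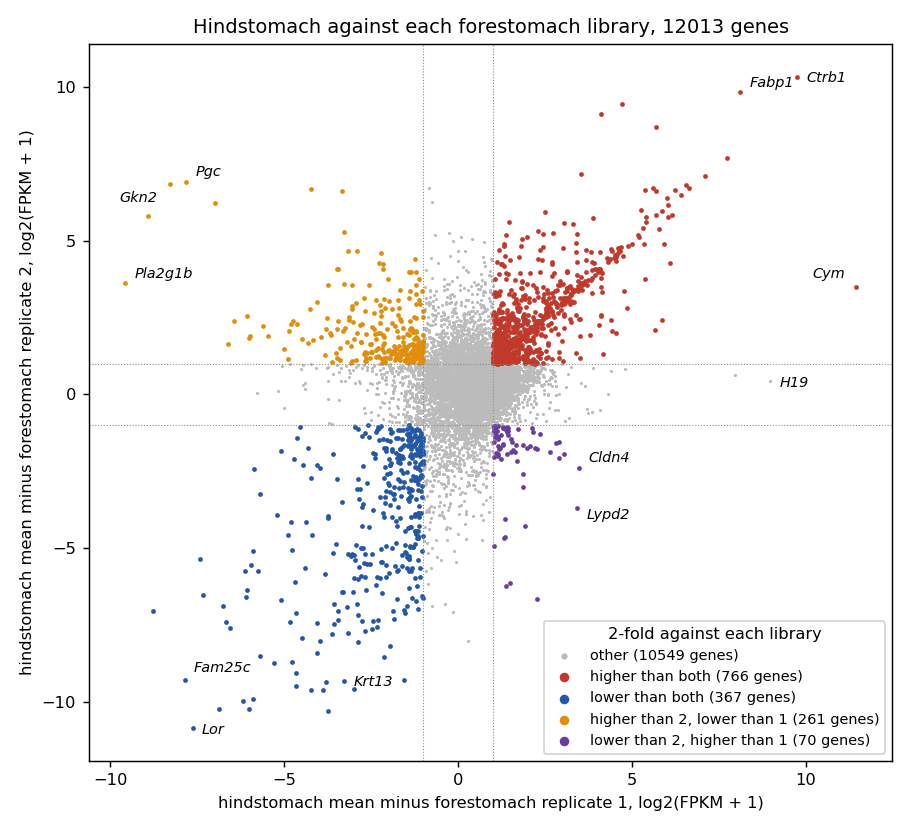
Difference of each of 12013 genes between the hindstomach mean and forestomach replicate 1 (horizontal) or replicate 2 (vertical), in log2(FPKM + 1), with dotted lines at 2-fold. The 766 genes higher (red) and 367 lower (blue) than both libraries lie in the upper right and lower left corners, and the 261 (orange) and 70 (purple) genes that lie between the forestomach libraries in the other corners.

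Without a test, each gene was also placed by whether the hindstomach mean was 2-fold away from each forestomach library. It was higher than both for 766 genes (6.38%), lower than both for 367 (3.06%), higher than replicate 2 and lower than replicate 1 for 261 (2.17%) and lower than replicate 2 and higher than replicate 1 for 70 (0.583%), as the plot of differences against each library shows. The median difference of all genes was 0.42 on the log2 scale, and 0.064 after median-of-ratios scaling. Higher genes made up 76.5% of all calls on the deposited values, 48.4% under median-of-ratios scaling, 45.7% under quantile normalization and 89.2% when totals were made equal. The balance of higher and lower calls thus rests on the scaling.

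Ranked by the smallest of their 4 differences between libraries, the first 12 genes that fell in the hindstomach were Fam25c, Lor, Lgals7, Lce1a1, Krt1, Krt14, Spink5, Slpi, Lce1d, Krtdap, Lce3f and Crct1. Fam25c, whose function is little known, stood at 0.727 and 0.427 FPKM in the hindstomach against 364 and 978 in the forestomach. Loricrin, Lor, the main protein of the cornified envelope, stood at 0.848 and 0.425 FPKM in the hindstomach against 320.1 and 3029 in the forestomach. Neither hindstomach library reached 1 FPKM in these 2 genes, and both forestomach libraries lay far above them. In the GENCODE annotation of GRCm38 Fam25c lies on chromosome 14 from 34351881 to 34355433 and Lor on chromosome 3 from 92080271 to 92083142, both on the minus strand.

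Differences are hindstomach minus forestomach in log2(FPKM + 1), with their SE, and adjusted p-values are limma's. The words kept in 4 of 8, or another number, give in how many of the 8 fits without 1 library a call stayed. Fam25c fell by 8.57 ± 0.45 on the log2 scale (limma adjusted p = 6.47e-04), with differences of -7.86 and -9.28 against forestomach replicates 1 and 2 alone. The galectin Lgals7, a lectin of stratified epithelia, stood at 0.959 and 0.564 FPKM in the hindstomach against 762 and 229.7 in the forestomach (difference -7.90 ± 0.54, adjusted p = 0.00183, kept in 8 of 8). In Lgals7 forestomach replicate 1 was the higher of the pair. Krt1, the type II keratin of differentiating keratinocytes, stood at 0.503 and 1.05 FPKM in the hindstomach against 179 and 299 in the forestomach (difference -7.05 ± 0.30, adjusted p = 4.34e-04, kept in 8 of 8). Krt14, a keratin of basal cells, stood at 1.32 and 0.364 FPKM in the hindstomach against 193 and 212 in the forestomach (difference -6.84 ± 0.31, adjusted p = 4.74e-04, kept in 8 of 8). The forestomach libraries were close to each other in Krt14, at 203 ± 12.96 FPKM (SD, n = 2). Spink5, a serine protease inhibitor of cornifying epithelium, stood at 0.496 and 0.0202 FPKM in the hindstomach against 198 and 114 in the forestomach (difference -6.94 ± 0.33, adjusted p = 4.74e-04, kept in 8 of 8). The calls of 7 of the 12 held whichever library was left out (Fam25c, Krt1, Krt14, Lce1a1, Lce1d, Lgals7 and Spink5). Those of Lor, Krtdap, Slpi, Lce3f and Crct1 ended without either hindstomach library, those of Slpi, Lce3f and Crct1 also without either intestine library, and those of Lce3f and Crct1 without either colon library. The adjusted p of Lor was 0.0729 without hindstomach replicate 1 and 0.0756 without hindstomach replicate 2, and that of Lce3f reached 0.174. Of the 12 genes, 9 were under 1 FPKM in all 4 intestine and colon libraries, the exceptions being Krt14, Lor and Slpi.

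Among structural proteins of the envelope, 29 of 46 tested genes fell and none rose (38 lower and 1 higher against forestomach replicate 1, 43 lower and 0 higher against replicate 2). Their median difference was -4.87, against 0.42 for all genes, and 41 were 2-fold lower than both libraries. The median log2(FPKM + 1) of the list was 0.016 and 0.075 in the hindstomach libraries. Many members could thus pass the filter only through both forestomach libraries, which fixed their direction in advance. Repetin, Rptn, a late envelope protein, missed the call, at 0.593 and 0.0888 FPKM in the hindstomach against 23.8 and 1042 in the forestomach (difference -6.93 ± 1.57, adjusted p = 0.0539). Late cornified envelope genes were nearly silent in the hindstomach: Lce1d was listed at 0 in both hindstomach libraries and at 68.0 and 96.7 FPKM in the forestomach. Lce1a1 stood at 0 and 0.0275 FPKM in the hindstomach against 94.3 and 195 in the forestomach (difference -7.07 ± 0.35, adjusted p = 5.29e-04, kept in 8 of 8). Members of the Lce1, Lce3 and Sprr2 groups are near-identical copies, and how the authors' counting divided shared reads is not known. Involucrin, Ivl, an early envelope protein, was low on both sides, at 0.526 and 0.423 FPKM in the hindstomach against 1.04 and 2.00 in the forestomach, and was not called (difference -0.75 ± 0.25, adjusted p = 0.116). Of the alarmin genes, S100a8 stood at 28.5 and 7.62 FPKM in the hindstomach against 0.114 and 0.620 in the forestomach, the 1 member called higher against replicate 1 (adjusted p = 0.0280). S100a9 lay between the forestomach libraries, at 47.6 and 14.3 FPKM in the hindstomach against 2.89 and 81.2 in the forestomach. The count of lower genes was 11 without hindstomach replicate 1 and 11 without hindstomach replicate 2.

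Keratins of stratified epithelium followed the same side, with 8 of 15 lower and none higher (9 lower against replicate 1, all 15 against replicate 2). Krt10, the partner of Krt1, stood at 3.69 and 2.77 FPKM in the hindstomach against 216 and 1548 in the forestomach (difference -7.11 ± 0.83, adjusted p = 0.00997, kept in 6 of 8). The type II keratin Krt78 stood at 1.501 and 1.68 FPKM in the hindstomach against 42.4 and 449 in the forestomach (difference -5.76 ± 0.99, adjusted p = 0.0293, kept in 2 of 8). The esophageal-type pair Krt4 and Krt13, the most abundant keratins of forestomach replicate 2, was not called. Krt13 stood at 91.8 and 5.33 FPKM in the hindstomach against 233 and 15454 in the forestomach (adjusted p = 0.110), differing by -3.27 against replicate 1 (adjusted p = 0.131) and by -9.32 against replicate 2 (adjusted p = 0.00929). In Krt13 both pairs were wide, and hindstomach replicate 1 held more than replicate 2. Krt15, a basal keratin, lay between the forestomach libraries, at 59.5 and 18.0 FPKM in the hindstomach against 11.1 and 2376 in the forestomach. The count of lower keratins was 2 without hindstomach replicate 1 and 2 without hindstomach replicate 2. Simple-epithelial keratins made no call with all libraries: Krt8 stood at 1374 and 1601 FPKM in the hindstomach against 1245 and 468 in the forestomach. Its partner Krt18 stood at 722 and 742 FPKM in the hindstomach against 458 and 54.7 in the forestomach, differing by 0.68 against replicate 1 (adjusted p = 0.0326) and 3.72 against replicate 2 (adjusted p = 2.04e-04).

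Proteases and inhibitors that set the pace of desquamation, the shedding of cornified cells, fell in 8 of 31 cases, while the membrane serine protease Tmprss4 rose (53.2 and 51.7 FPKM in the hindstomach against 18.8 and 21.5 in the forestomach, difference 1.34 ± 0.18, adjusted p = 0.0166, kept in 4 of 8). Against replicate 1 alone 20 were lower and 4 higher (Stfa1, Stfa2l1, Spint1 and Tmprss4), and against replicate 2 alone 23 were lower and 1 higher, Tmprss4 again. The antileukoproteinase Slpi stood at 0.303 and 0.164 FPKM in the hindstomach against 89.5 and 1242 in the forestomach (difference -8.09 ± 1.10, adjusted p = 0.0164, kept in 4 of 8). Kallikrein 7, Klk7, which cleaves desmosomes in shedding skin, stood at 0.00920 and 0.0204 FPKM in the hindstomach against 28.9 and 23.3 in the forestomach (difference -4.73 ± 0.20, adjusted p = 4.34e-04, kept in 8 of 8). Its activator Klk5 was listed at 0 in both hindstomach libraries and at 6.11 and 7.503 FPKM in the forestomach. In Klk7 and Klk5 the forestomach libraries were alike. Klk10, at 1.23 and 0.819 FPKM in the hindstomach against 7.85 and 761 in the forestomach, had a far wider forestomach range and was not called (adjusted p = 0.122). The count of lower genes in this list was 3 without hindstomach replicate 1 and 3 without hindstomach replicate 2. Serpinb3 and stefin A genes are near-identical copies and their division is uncertain.

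Many of these genes lie side by side on the chromosome (GRCm38). The epidermal differentiation complex on chromosome 3, from 90526856 to 93471980, held 42 tested genes, of which 26 (61.9%) were lower and 2 higher (S100a5 and Smcp), against 1.47% lower of all genes. The lower genes were mostly Lce genes, with Lor, Crct1, Kprp, Sprr2b, Sprr2d and Sprr2f. Against forestomach replicates 1 and 2 alone 32 and 35 were lower. In the type I keratin cluster on chromosome 11, from 99279959 to 100261029, 4 of 10 were lower (Krt10, Krt14, Krt16 and Krt17), and in the type II cluster on chromosome 15, from 101347444 to 101954287, 4 of 9 (Krt1, Krt6b, Krt78 and Krt79). The kallikrein cluster on chromosome 7, from 43690418 to 43851181, had 3 of 9 lower (Klk5, Klk7 and Klk11) with all libraries but 9 and 8 of 9 against replicates 1 and 2 alone. In the Serpinb cluster on chromosome 1, from 106861173 to 107610484, 1 of 6 was lower (Serpinb12), and 4 and 6 of 6 against each library alone. These clusters overlap with the lists above. The direction of members under 1 FPKM in both hindstomach libraries was likewise fixed by the filter.

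Promoters of some leading genes are shown as a description. The genes were chosen for their side of the comparison, and shared regulation was not tested. The sequences, the 250 bases before the gene start, come from RefSeq with GRCm38.p6 coordinates, 5′ to 3′ on the strand of the gene. RefSeq's start is the one used, and for Fam25c and Fabp1 it lies inside the GENCODE gene, so that these windows reach into it. Ctrb1 and Fam25c lead the higher and the lower genes, and Fabp1 and Lor were added after their sequences were seen. Capitals mark 6 motifs searched on both strands: the TATA box TATAAA, the motif TGANTCA of AP-1, a factor of keratinocyte differentiation, the motif TTTATNG of Cdx factors, AGATAA of Gata factors, CAAAGTNCA of Hnf4 factors and CACCC of Klf factors. TATAAA read on the other strand can overlap with TTTATNG.
Ctrb1, chr8:111691011-111691260, minus strand: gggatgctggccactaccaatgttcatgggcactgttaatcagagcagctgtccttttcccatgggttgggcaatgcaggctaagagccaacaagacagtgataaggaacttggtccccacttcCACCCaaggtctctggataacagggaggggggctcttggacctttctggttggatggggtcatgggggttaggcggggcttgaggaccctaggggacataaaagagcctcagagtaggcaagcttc
Fabp1, chr6:71199629-71199878, plus strand: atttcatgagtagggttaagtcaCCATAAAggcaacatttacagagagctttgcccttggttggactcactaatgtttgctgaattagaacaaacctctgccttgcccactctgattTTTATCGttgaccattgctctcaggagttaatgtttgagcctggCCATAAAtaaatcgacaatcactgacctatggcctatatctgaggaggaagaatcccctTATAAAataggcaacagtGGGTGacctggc
Fam25c, chr14:34355394-34355643, minus strand: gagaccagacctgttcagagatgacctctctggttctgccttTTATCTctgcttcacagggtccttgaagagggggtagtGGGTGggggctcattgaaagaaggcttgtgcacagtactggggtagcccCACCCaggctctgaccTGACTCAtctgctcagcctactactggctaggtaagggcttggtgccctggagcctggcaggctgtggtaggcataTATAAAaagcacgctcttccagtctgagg
Lor, chr3:92083143-92083392, minus strand: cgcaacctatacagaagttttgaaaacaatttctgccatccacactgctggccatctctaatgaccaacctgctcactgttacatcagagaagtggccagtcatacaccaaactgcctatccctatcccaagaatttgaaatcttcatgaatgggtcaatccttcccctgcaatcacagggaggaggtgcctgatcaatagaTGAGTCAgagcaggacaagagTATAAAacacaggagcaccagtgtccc

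The Fam25c and Lor windows each held TATAAA, starting 29 and 27 bases before the RefSeq start, and TGANTCA, 105 and 48 bases before it. The Fam25c window also held AGATAA at 208 and CACCC at 170 and 121 bases before the start. The Fabp1 window held TATAAA at 30, TTTATNG at 227, 133 and 89, and CACCC at 12 bases before the start. The Ctrb1 window held CACCC alone. Over 27025 promoters of the table the shares were 14.2% for TATAAA, 7.93% for TGANTCA, 11.3% for TTTATNG, 1.41% for CAAAGTNCA, 11.4% for AGATAA and 56.7% for CACCC. These shares were taken over a wider window than the printed one, 250 bases before and 50 bases after the start. A match to these letters is a description and not a binding site. Among the called genes 436 of 572 and 128 of 176 had a RefSeq promoter, both under the 80% needed. All are under the 80% needed, so shares over these genes are void and not given.

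The first 12 genes that rose in the hindstomach, by the same ranking, were Ctrb1, Fabp1, Prap1, Apoc3, Cps1, Alpi, Cpa1, Tff3, S100g, Mptx1, Fabp2 and Muc13. The fatty acid binding protein Fabp1 stood at 1486 and 1410.1 FPKM in the hindstomach against 4.26 and 0.584 in the forestomach, and rose by 8.97 ± 0.73 (8.11 and 9.84 against forestomach replicates 1 and 2 alone, limma adjusted p = 0.00351 with both). S100g, the calcium carrier calbindin-D9k, stood at 87.7 and 100.1 FPKM in the hindstomach against 0.331 and 0.635 in the forestomach (difference 6.01 ± 0.21, adjusted p = 3.06e-04, kept in 8 of 8). Tff3, a trefoil peptide of goblet cells, stood at 227 and 137 FPKM in the hindstomach against 1.36 and 0.764 in the forestomach (difference 6.44 ± 0.30, adjusted p = 4.74e-04, kept in 8 of 8). These genes were chosen so that the hindstomach libraries did not overlap with the forestomach libraries. In all but Fabp1, Tff3, Fabp2 and Muc13 both forestomach libraries were under 1 FPKM.

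All 12 were above 10 FPKM in every intestine and colon library, and in 10 of them both intestine libraries lay above both hindstomach libraries, the exceptions being Ctrb1 and Cpa1. Fabp1 stood at 6782 and 9222 FPKM in the intestine. Intestinal alkaline phosphatase, Alpi, stood at 83.8 and 104 FPKM in the hindstomach and at 406 and 552 in the intestine. Among all 572 higher genes 385 (67.3%) reached 10 FPKM in both intestine libraries, against 39.8% of all genes tested and 6.25% of the 176 lower genes. Of the lower genes 93 (52.8%) were under 1 FPKM in all intestine and colon libraries, against 3.70% of all. The part that intestinal cells in the hindstomach preparations have in this was not tested. Alpi, Apoc3, Fabp1, Mptx1, Muc13, S100g and Tff3 kept their calls whichever library was left out. The calls of Ctrb1, Cps1 and Prap1 ended without hindstomach replicate 1 (adjusted p = 0.0722, 0.0658 and 0.0526), and those of Cpa1 and Fabp2 without either hindstomach library (adjusted p up to 0.201 and 0.158), Fabp2 also without either intestine library.

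**Figure D2:**
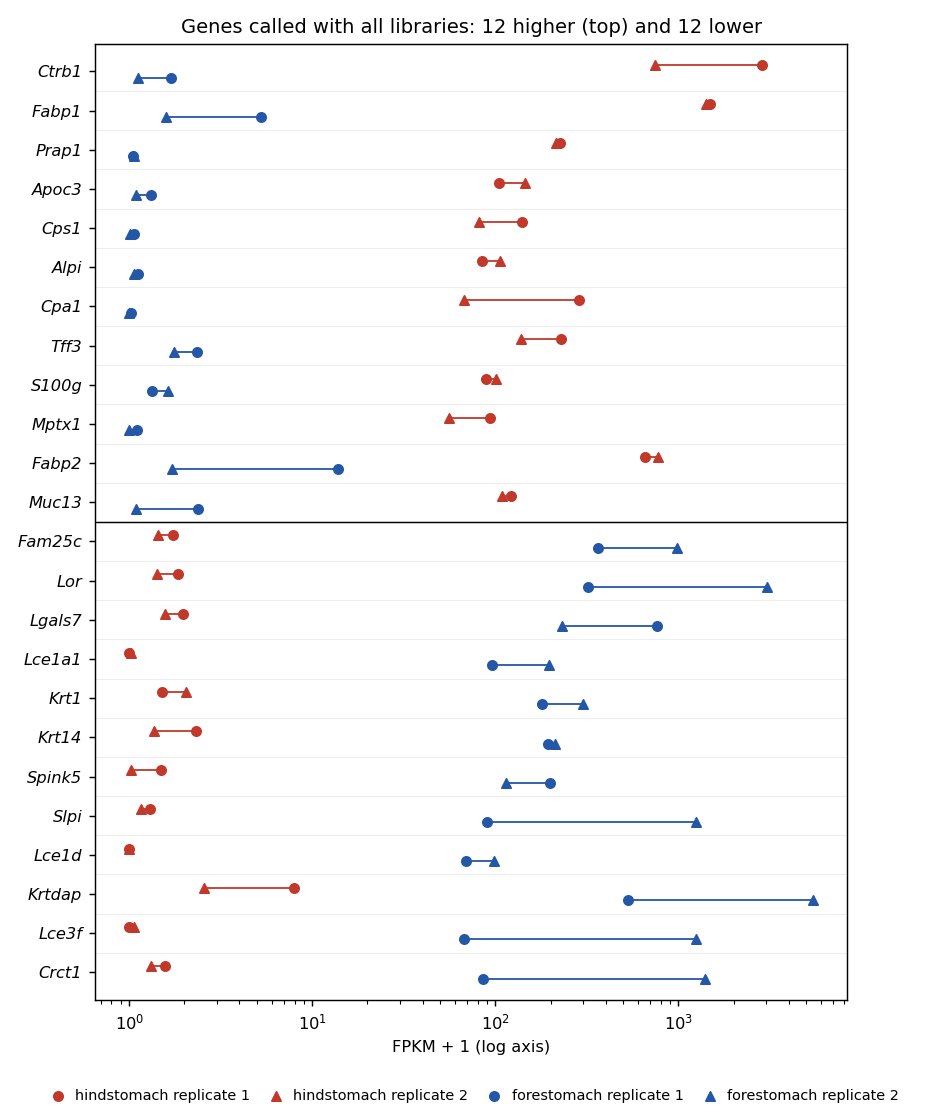
FPKM + 1 on a log axis for the 12 highest ranked genes called higher (upper panel) and the 12 called lower (lower panel), red for hindstomach and blue for forestomach libraries, circles for replicate 1 and triangles for replicate 2, joined within a tissue. The genes were chosen so that the red points lie on one side of the blue ones. The blue points lie well apart in Lor (320.1 and 3029 FPKM) and close together in Krt14 (193 and 212 FPKM).

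Of 26 brush border and digestion genes 15 rose and none fell (22 higher against replicate 1, 21 higher and 1 lower against replicate 2), with a median difference of 2.99. The median log2(FPKM + 1) of the list was 0.65 and 0.11 in the forestomach libraries. Many members could thus pass the filter only through both hindstomach libraries, which fixed their direction in advance. The protocadherin Cdhr2, which links microvilli, stood at 25.7 and 35.5 FPKM in the hindstomach against 1.98 and 0.0261 in the forestomach (difference 4.16 ± 0.59, adjusted p = 0.0188, kept in 4 of 8). The peptidase subunit Mep1a stood at 12.4 and 11.97 FPKM in the hindstomach and was listed at 0 in both forestomach libraries. Cdh17, a liver-intestine cadherin, stood at 41.7 and 26.4 FPKM in the hindstomach against 0.0650 and 0.156 in the forestomach (difference 4.95 ± 0.27, adjusted p = 6.78e-04, kept in 8 of 8) and kept its call with each library left out. The peptide transporter Slc15a1 lay between the forestomach libraries, at 4.14 and 5.79 FPKM in the hindstomach against 0.912 and 20.9 in the forestomach, lower against replicate 2 (adjusted p = 0.0258) and higher against replicate 1 (adjusted p = 0.0321). The glucose transporter Slc5a1, named after its values were seen, was near the level of forestomach replicate 2, at 21.9 and 22.2 FPKM in the hindstomach against 0.851 and 18.0 in the forestomach. The count of higher genes was 9 without hindstomach replicate 1 and 8 without hindstomach replicate 2.

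Lipid absorption genes rose in 7 of 22 cases (11 against replicate 1 and 15 against replicate 2, with Cd36 and Fabp6 lower against replicate 1 and Fabp6 against replicate 2), a count that was 3 without hindstomach replicate 1 and 3 without hindstomach replicate 2. Besides the fatty acid binding proteins these included the apolipoprotein Apoa4, at 1105 and 1544 FPKM in the hindstomach against 48.9 and 0.860 in the forestomach (difference 7.08 ± 1.49, adjusted p = 0.0465, kept in 2 of 8). Apoc3 stood at 104 and 143 FPKM in the hindstomach against 0.313 and 0.0884 in the forestomach (difference 6.68 ± 0.58, adjusted p = 0.00391, kept in 8 of 8). The scavenger receptor Cd36 lay between the forestomach libraries, at 9.06 and 10.3 FPKM in the hindstomach against 34.2 and 0.255 in the forestomach. Goblet cell genes rose in 6 of 16 cases and none fell, with median differences of 1.21 and 4.32 against forestomach replicates 1 and 2. Placed by 2-fold without a test, 9 of the 16 were higher than both forestomach libraries and 1 was lower than both. Among those that rose was the mucin Muc13, at 121 and 107 FPKM in the hindstomach against 1.37 and 0.0826 in the forestomach (difference 6.17 ± 0.43, adjusted p = 0.00186, kept in 8 of 8). Reg4, a secreted lectin, stood at 23.6 and 21.3 FPKM in the hindstomach against 0.0345 and 0 in the forestomach (difference 4.53 ± 0.19, adjusted p = 4.34e-04, kept in 8 of 8). The secreted mucin Muc2 was low throughout, at 1.34 and 2.403 FPKM in the hindstomach against 0.242 and 0.0604 in the forestomach, and was not called (adjusted p = 0.105).

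Regulators of endodermal glandular epithelium rose with all libraries in 11 of 33 cases, and none fell. Against replicate 2 alone 25 rose and none fell, and against replicate 1 alone 14 rose and Klf15 fell (3.77 and 3.24 FPKM in the hindstomach against 9.78 and 3.91 in the forestomach, adjusted p = 0.0321). With median-of-ratios scaling 7 rose, and the count was 2 without hindstomach replicate 1 and 3 without hindstomach replicate 2. Nkx6-3, a homeobox gene of the distal stomach, stood at 24.6 and 24.7 FPKM in the hindstomach against 0.0158 and 0 in the forestomach (difference 4.67 ± 0.58, adjusted p = 0.0119, kept in 6 of 8), and at 3.71 and 4.96 FPKM in the intestine. It lies on chromosome 8 from 23153269 to 23158948. The intestinal homeobox gene Cdx2 stood at 24.4 and 16.55 FPKM in the hindstomach against 0.0273 and 0 in the forestomach (difference 4.38 ± 0.23, adjusted p = 6.47e-04, kept in 8 of 8) and kept its call with each library left out. In the intestine Cdx2 stood at 133 and 135 FPKM. Both genes were at or near 0 in both forestomach libraries.

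Some regulators differed more from forestomach replicate 2 than from replicate 1. Gata4, required for glandular stomach identity, stood at 62.9 and 66.6 FPKM in the hindstomach against 59.0 and 2.70 in the forestomach, differing by 0.13 against replicate 1 (adjusted p = 0.876) and by 4.15 against replicate 2 (adjusted p = 0.00736). Gata6 stood at 51.1 and 50.03 FPKM in the hindstomach against 31.5 and 3.48 in the forestomach. Hnf4a stood at 63.4 and 53.8 FPKM in the hindstomach against 26.4 and 1.98 in the forestomach. The forkhead genes Foxa2, at 14.3 and 15.6 FPKM in the hindstomach and 21.2 and 1.13 in the forestomach, and Foxa3, at 27.7 and 28.7 FPKM in the hindstomach and 31.9 and 1.25 in the forestomach, likewise had forestomach replicate 2 far below the other 3 stomach libraries. These 5 were chosen after their values were seen. The winged helix gene Foxa1 was lower in both forestomach libraries (95.2 and 92.6 FPKM in the hindstomach against 40.7 and 34.1 in the forestomach, difference 1.31 ± 0.23, adjusted p = 0.0294, kept in 4 of 8). Pdx1, a regulator of antrum, duodenum and pancreas, stood at 7.57 and 6.04 FPKM in the hindstomach against 0.00410 and 0.00830 in the forestomach (difference 2.95 ± 0.49, adjusted p = 0.0263, kept in 4 of 8). Foxq1, a forkhead gene of gastric mucous cells, stood at 106 and 129 FPKM in the hindstomach against 86.3 and 67.4 in the forestomach and was not called (adjusted p = 0.138).

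Regulators of squamous epithelium fell in 4 of 28 cases with all libraries: Barx2, Pitx1, Klf4 and Irx3. Klf4, a zinc finger factor of barrier formation, stood at 41.3 and 61.2 FPKM in the hindstomach against 212 and 306 in the forestomach (difference -2.32 ± 0.31, adjusted p = 0.0153, kept in 4 of 8). The homeobox gene Pitx1 stood at 18.7 and 19.6 FPKM in the hindstomach against 66.2 and 252 in the forestomach (difference -2.70 ± 0.58, adjusted p = 0.0493, kept in 2 of 8). Barx2 stood at 1.21 and 1.13 FPKM in the hindstomach against 15.8 and 89.8 in the forestomach (difference -4.17 ± 0.77, adjusted p = 0.0350, kept in 2 of 8). None of these 4 calls held without hindstomach replicate 1 (adjusted p up to 0.258, for Pitx1). Against replicate 2 alone 19 were lower and 2 higher (Maf and Ovol2), and against replicate 1 alone 11 were lower and 7 higher. Trp63, the basal squamous master regulator, stood at 0.717 and 0.120 FPKM in the hindstomach against 2.85 and 53.0 in the forestomach, lower against each library alone (adjusted p = 0.0104 and 2.72e-04) but not with both (adjusted p = 0.110). Sox2, which marks foregut epithelium on both sides of the border, lay between the forestomach libraries at 41.2 and 36.8 FPKM in the hindstomach against 11.6 and 125 in the forestomach, with differences of 1.66 and -1.66 against replicates 1 and 2.

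**Figure D3:**
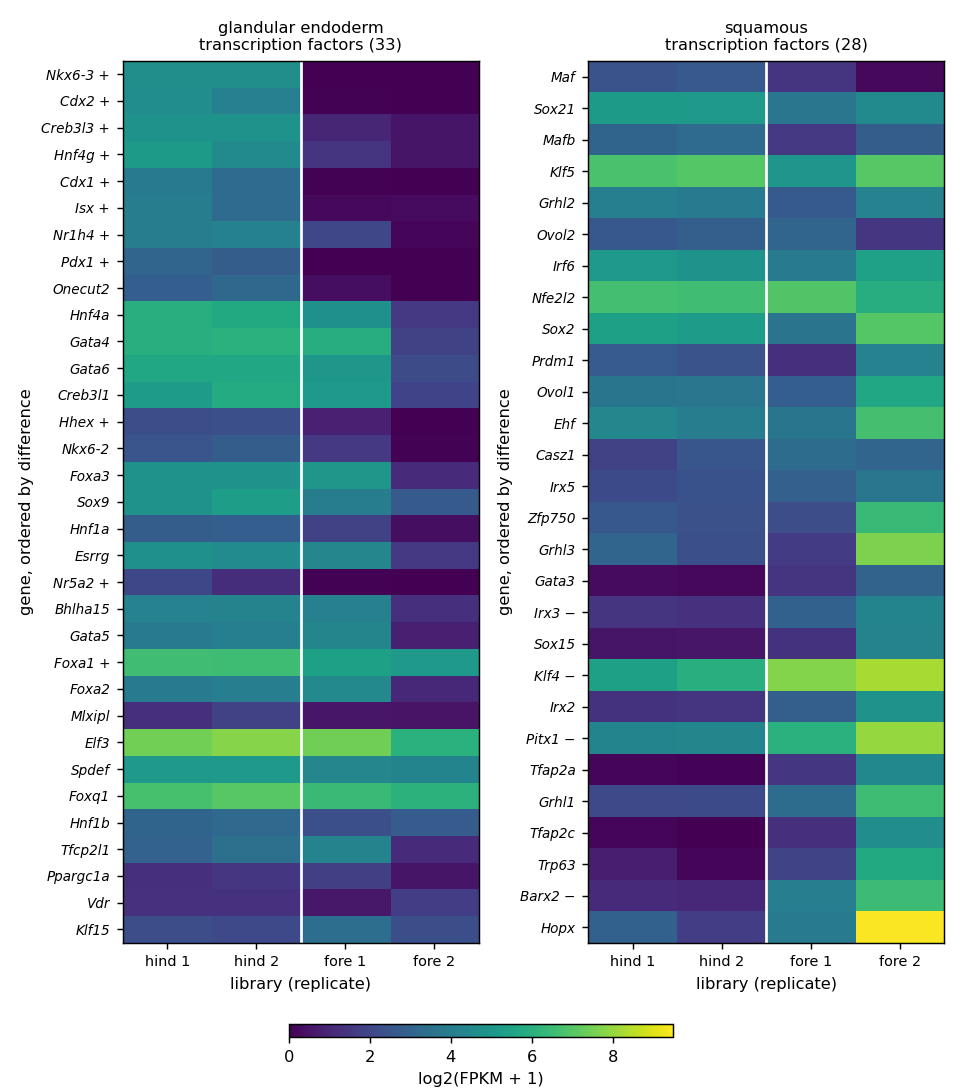
Level of 33 glandular (left) and 28 squamous (right) transcription factors in hindstomach replicates 1 and 2 (hind) and forestomach replicates 1 and 2 (fore), as log2(FPKM + 1) by color, ordered by the hindstomach minus forestomach difference, with + and − for genes called higher or lower with all libraries. Over the 33 glandular factors the median is 4.04 and 4.13 in the hindstomach libraries against 2.33 and 1.09 in the forestomach libraries, and squamous factors such as Hopx are brightest in forestomach replicate 2 (699 FPKM).

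Of 21 claudin and tight junction genes 3 rose and none fell with all libraries (10 higher against replicate 1, 8 higher and 2 lower, Cldn1 and Cldn4, against replicate 2). Cldn2, a cation channel claudin of leaky epithelia, stood at 31.6 and 23.2 FPKM in the hindstomach against 0.0928 and 0 in the forestomach (difference 4.75 ± 0.48, adjusted p = 0.00632, kept in 6 of 8). Cldn6, a claudin of embryonic epithelia, stood at 56.2 and 31.6 FPKM in the hindstomach against 0.0410 and 2.20 in the forestomach (difference 4.56 ± 0.83, adjusted p = 0.0336, kept in 4 of 8). Marveld2, tricellulin of contacts where cells meet at corners, stood at 21.8 and 18.8 FPKM in the hindstomach and 5.63 and 6.99 in the forestomach (difference 1.55 ± 0.18, adjusted p = 0.0102, kept in 4 of 8). These 3 calls ended without either hindstomach library (adjusted p up to 0.227). Cldn7 stood at 198 and 173 FPKM in the hindstomach against 2.21 and 33.9 in the forestomach, and Cldn3 at 36.4 and 28.4 FPKM in the hindstomach and 0.539 and 6.86 in the forestomach. Added after their values were seen, they were higher against each library alone and just missed with both (adjusted p = 0.0621 and 0.0504). Epcam, an epithelial adhesion protein low in squamous cells, stood at 427 and 374 FPKM in the hindstomach against 83.2 and 146 in the forestomach (difference 1.85 ± 0.30, adjusted p = 0.0261, kept in 2 of 8), a call that also ended under median-of-ratios scaling.

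Desmosomal genes, which hold squamous layers together, were called mainly against replicate 2. With all libraries 1 of 23 rose, beside 4.76% of all genes. It was the desmoglein of simple epithelia Dsg2 (36.3 and 35.6 FPKM in the hindstomach against 18.5 and 15.0 in the forestomach, difference 1.06 ± 0.17, adjusted p = 0.0248, kept in 1 of 8), a call that ended under median-of-ratios and quantile scaling and in 7 of 8 leave-one-out fits. Against replicate 2 alone 15 fell and 3 rose (Dsg2, Pkp2 and Itga3), and against replicate 1 alone 6 fell and 1 rose, Itga6. Plakophilin 1, Pkp1, of stratified desmosomes, stood at 2.45 and 0.123 FPKM in the hindstomach against 9.83 and 323 in the forestomach and differed by -2.46 against replicate 1 (adjusted p = 0.0270) and by -7.36 against replicate 2 (adjusted p = 0.00129). The hemidesmosomal collagen Col17a1, which anchors basal cells, stood at 1.27 and 0.128 FPKM in the hindstomach against 4.35 and 82.9 in the forestomach and differed by -1.74 against replicate 1 (adjusted p = 0.0219) and by -5.71 against replicate 2 (adjusted p = 7.97e-04). Dsg3, a basal desmoglein, stood at 1.41 and 0.00940 FPKM in the hindstomach against 1.05 and 174 in the forestomach, a level in hindstomach replicate 1 above that in forestomach replicate 1. Pkp1, Col17a1 and Dsg3 were named after their values were seen.

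Although most of the higher genes were also present in the bowel, 13 of the 377 that averaged at least 10 FPKM in the hindstomach lay 4-fold or more above every intestine and colon library. They were chosen after their values were seen and are given as a description: Gsdmc2, Gsdmc3, Myo16, Chad, Trpv6, Tmc7, Kctd14, Cpn1, Gsdmc4, Nepn, Nkx6-3, Fam3c and Ncmap. Gsdmc2, a gasdermin, stood at 119 and 211 FPKM in the hindstomach against 17.2 and 14.6 in the forestomach (difference 3.24 ± 0.37, adjusted p = 0.00974, kept in 7 of 8), with 1.13 and 0.216 FPKM in the intestine and 1.30 and 1.20 in the colon. Gsdmc3 stood at 27.0 and 48.7 FPKM in the hindstomach against 3.14 and 3.16 in the forestomach, and Gsdmc4 at 15.4 and 17.7 FPKM in the hindstomach and 4.96 and 2.18 in the forestomach. Gsdmc genes are near-identical copies that may share reads. Trpv6, an epithelial calcium channel, stood at 13.98 and 15.5 FPKM in the hindstomach against 0.667 and 0.897 in the forestomach (difference 3.15 ± 0.20, adjusted p = 0.00124, kept in 8 of 8). Myo16, an unconventional myosin, stood at 11.7 and 16.3 FPKM in the hindstomach against 1.38 and 1.11 in the forestomach (difference 2.73 ± 0.24, adjusted p = 0.00394, kept in 8 of 8). In Gsdmc3, Myo16 and Trpv6 the forestomach libraries agreed within 1.5-fold.

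Genes of the gastric gland cell types themselves were not called higher with all libraries, and many, though not all, lay between the forestomach libraries. Of 21 surface mucous genes none rose and Psca fell (94.7 and 175 FPKM in the hindstomach against 6704 and 1232 in the forestomach, difference -4.47 ± 0.85, adjusted p = 0.0367, kept in 2 of 8), while 9 were 2-fold above forestomach replicate 2 and 2-fold below replicate 1, against 2.17% of all genes. Against replicate 2 alone 18 rose and Psca fell, and against replicate 1 alone 10 fell and none rose. The summed level of the list was 2234 and 2837 FPKM in the hindstomach against 75798 and 1342 in the forestomach. The gastrokine Gkn2, a secreted protein of surface mucous cells, stood at 79.7 and 161 FPKM in the hindstomach against 35988 in forestomach replicate 1 and a listed 0 in replicate 2. Its relative Gkn1 stood at 37.3 and 84.4 FPKM in the hindstomach against 27487 and 0.0143 in the forestomach. Gkn2 lies on chromosome 6 from 87373357 to 87379497. Gkn3 stood at 65.5 and 80.2 FPKM in the hindstomach against 12.1 and 0.189 in the forestomach and rose against replicate 2 (adjusted p = 0.00914).

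Of 14 neck and chief cell genes none rose with all libraries and the water channel Aqp5 fell (0.0523 and 0.0814 FPKM in the hindstomach against 2.91 and 9.05 in the forestomach, difference -2.56 ± 0.43, adjusted p = 0.0283, kept in 2 of 8). Of them 5 lay between the forestomach libraries. Progastricsin, Pgc, a pepsinogen, stood at 349 and 533 FPKM in the hindstomach against 97969.9 in forestomach replicate 1 and 2.54 in replicate 2, differing by -7.82 against replicate 1 (adjusted p = 0.00407) and by 6.93 against replicate 2 (adjusted p = 0.00366). Gif, gastric intrinsic factor, stood at 86.6 and 134 FPKM in the hindstomach against 985 and 3.25 in the forestomach. The trefoil peptide Tff2 stood at 202 and 298 FPKM in the hindstomach against 1905 and 30.1 in the forestomach. The perinatal milk-clotting protease Cym had another layout, at 23524 and 29459 FPKM in the hindstomach against 8.49 and 2310.1 in the forestomach. Both hindstomach libraries lay above both forestomach libraries, by 11.44 against replicate 1 (adjusted p = 0.00990) and 3.51 against replicate 2 (adjusted p = 0.213). It was the most abundant transcript of both hindstomach libraries. Pga5, another pepsinogen, stood at 795 and 4409 FPKM in the hindstomach against 108 and 164 in the forestomach. Cym and Pga5 were called against replicate 1 alone and not with all libraries (adjusted p = 0.130 for Cym and 0.0668 for Pga5).

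Parietal cell genes were placed like the mucous ones, with 0 of 18 called with all libraries, 14 higher against replicate 2, and 1 higher (Aqp4) and 8 lower against replicate 1. Of the 18, 10 lay between the forestomach libraries by 2-fold on each side. The proton pump subunit Atp4a stood at 76.9 and 258 FPKM in the hindstomach against 1584 and 7.34 in the forestomach. Its partner Atp4b stood at 218 and 435 FPKM in the hindstomach against 2326 and 11.2 in the forestomach. In both, hindstomach replicate 2 was above replicate 1. The hormone gene of somatostatin, Sst, also lay between the forestomach libraries, at 15.4 and 19.8 FPKM in the hindstomach against 247 and 0.569 in the forestomach. So did ghrelin, Ghrl, at 25.3 and 39.3 FPKM in the hindstomach and 547 and 3.07 in the forestomach, and the granule protein Chga, at 10.5 and 14.8 FPKM in the hindstomach and 147 and 1.57 in the forestomach.

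**Figure D4:**
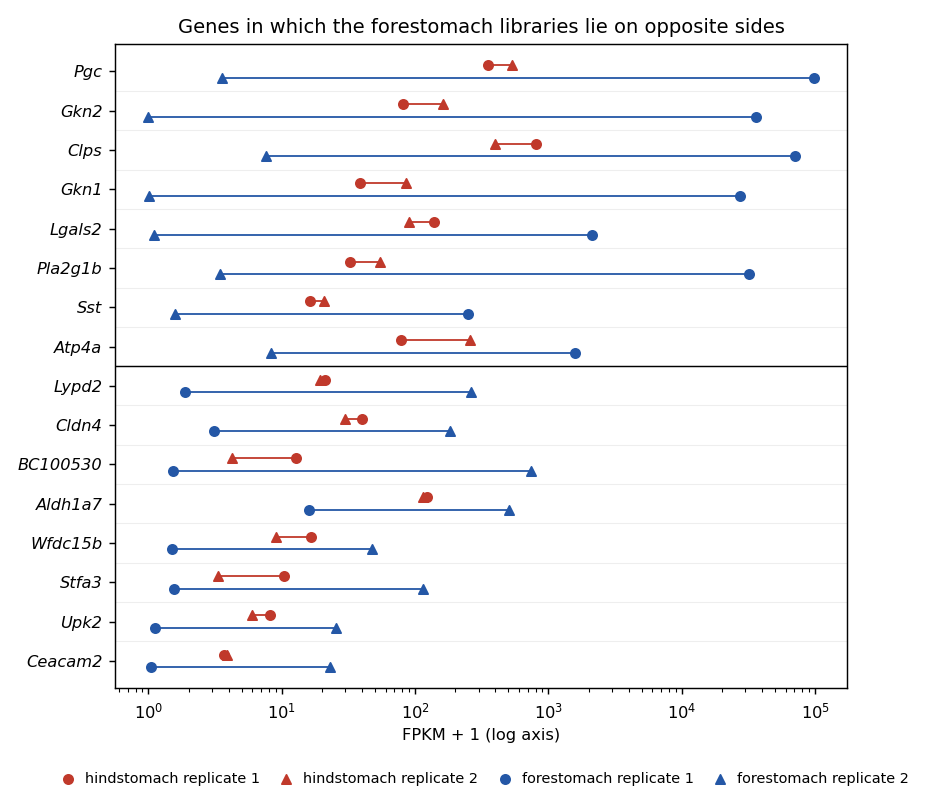
FPKM + 1 on a log axis for 8 genes 2-fold above forestomach replicate 2 and below replicate 1 (upper panel) and 8 genes 2-fold below replicate 2 and above replicate 1 (lower panel), red for hindstomach and blue for forestomach libraries, circles for replicate 1 and triangles for replicate 2. All 16 genes were chosen for a hindstomach mean between the forestomach libraries, and both red points lie between the blue ones. The widest gap on this axis is in Gkn2 (35988 and a listed 0 FPKM in forestomach replicates 1 and 2).

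Other endocrine genes rose in the hindstomach, 7 of 18 with all libraries and none lower (9 higher and 4 lower, Sst, Ghrl, Chga and Scg2, against replicate 1, 16 higher against replicate 2). Secretin, Sct, stood at 29.3 and 24.4 FPKM in the hindstomach against 0.330 and 0.0336 in the forestomach (difference 4.56 ± 0.21, adjusted p = 4.74e-04, kept in 8 of 8). Cholecystokinin, Cck, stood at 17.3 and 12.6 FPKM in the hindstomach against 0.232 and 0 in the forestomach (difference 3.83 ± 0.52, adjusted p = 0.0166, kept in 4 of 8). The incretin Gip stood at 8.49 and 8.55 FPKM in the hindstomach and was listed at 0 in both forestomach libraries. Neurog3, the transient regulator of endocrine precursors, stood at 5.75 and 3.45 FPKM in the hindstomach against 0.0286 and 0.116 in the forestomach (difference 2.35 ± 0.30, adjusted p = 0.0130, kept in 6 of 8), named after its values were seen. Gastrin, Gast, the hormone of antral G cells, stood at 10.7 and 15.3 FPKM in the hindstomach against 0 and 2.65 in the forestomach and missed the call (adjusted p = 0.0512), although it was higher against each library alone. The count was 1 without hindstomach replicate 1 and 1 without hindstomach replicate 2; Sct kept its call with each library left out.

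Among the 261 genes between the libraries with forestomach replicate 1 on top, 3 further genes ranked with the gastric ones. Colipase, Clps, stood at 801 and 393 FPKM in the hindstomach against 71034 and 6.55 in the forestomach. The phospholipase Pla2g1b stood at 31.7 and 53.3 FPKM in the hindstomach against 32102 and 2.44 in the forestomach. The galectin Lgals2 stood at 138 and 89.5 FPKM in the hindstomach against 2122 and 0.0912 in the forestomach. Colipase and Pla2g1b are products of pancreatic acinar cells. In forestomach replicate 1, however, the acinar genes Ctrb1 and Cpa1 stood at 0.696 and 0.0201 FPKM. Of 26 acinar genes 6 lay between the libraries while 19 were 2-fold higher in the hindstomach than in both. With all libraries 6 rose and none fell. The elastase Cela2a stood at 165 and 46.2 FPKM in the hindstomach against 0.389 and 0.0520 in the forestomach (difference 6.19 ± 1.07, adjusted p = 0.0298, kept in 4 of 8). The chymotrypsinogen Ctrb1 stood at 2852 and 748 FPKM in the hindstomach against 0.696 and 0.121 in the forestomach (difference 10.05 ± 1.06, adjusted p = 0.00728, kept in 7 of 8). Its level was 1807 and 298 FPKM in the intestine and 1041 and 354 in the colon. In Ctrb1 replicate 1 was the higher library of all 4 tissues. The summed level of the acinar list was 6287 and 1895 FPKM in the hindstomach against 103851 and 20.8 in the forestomach. In forestomach replicate 1 that sum was mostly Clps and Pla2g1b. The median log2(FPKM + 1) of the list was 5.58 and 3.98 in the hindstomach against 1.31 and 0.05 in the forestomach. The count of higher acinar genes was 1 without hindstomach replicate 1 and 2 without hindstomach replicate 2; trypsin and Cela3 genes are near-identical copies. The part that pancreatic tissue in the preparations has in these levels was not tested.

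The 70 genes on the opposite corner, below forestomach replicate 2 and above replicate 1, included barrier genes. Cldn4, a tight junction claudin, stood at 39.3 and 28.8 FPKM in the hindstomach against 2.11 and 181 in the forestomach, differing by 3.48 against replicate 1 (adjusted p = 0.00637) and by -2.39 against replicate 2 (adjusted p = 0.0178). Lypd2 stood at 19.9 and 18.2 FPKM in the hindstomach against 0.870 and 262 in the forestomach. The uroplakin Upk2, a urothelial surface protein, stood at 7.14 and 4.95 FPKM in the hindstomach against 0.111 and 24.3 in the forestomach. The other members ran the same way, with the antiprotease Wfdc15b at 15.7 and 7.99 FPKM in the hindstomach and 0.493 and 46.2 in the forestomach. The aldehyde dehydrogenase Aldh1a7 stood at 123 and 113 FPKM in the hindstomach against 15.0 and 502 in the forestomach. BC100530 stood at 11.7 and 3.24 FPKM in the hindstomach against 0.536 and 738 in the forestomach, and Stfa3 at 9.44 and 2.35 FPKM in the hindstomach and 0.556 and 114 in the forestomach. These stefin A copies, which may share reads, were called against replicate 2 and not against replicate 1 (adjusted p = 0.0649 and 0.0909). Ceacam2, a cell adhesion receptor, stood at 2.71 and 2.91 FPKM in the hindstomach against 0.0512 and 22.1 in the forestomach. In the colon Ceacam2 stood at 35.1 and 27.0 FPKM. No gene of this group or of the 261 was called with all libraries.

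Cell cycle and fetal growth genes separated the hindstomach from forestomach replicate 1 much more than from replicate 2. Of 32 cell cycle genes none was called with all libraries, all 32 rose against replicate 1, and 3 rose against replicate 2 (Mcm6, Plk1 and Ccnb2). Their median log2(FPKM + 1) was 4.76 and 4.25 in the hindstomach against 2.30 and 3.95 in the forestomach. The median difference of the list was 2.25 against replicate 1 and 0.56 against replicate 2, beside 0.49 and 0.32 for all genes. The proliferation antigen Mki67 stood at 36.6 and 38.1 FPKM in the hindstomach against 7.23 and 27.1 in the forestomach. The replicative helicase subunit Mcm6 stood at 64.0 and 48.9 FPKM in the hindstomach against 6.66 and 23.9 in the forestomach, differing by 2.90 against replicate 1 (adjusted p = 0.00164) and by 1.19 against replicate 2 (adjusted p = 0.0103). The ribosomal protein list went the same way without the size: 29 of 76 rose against replicate 1 and none against replicate 2 or with all libraries.

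Of 19 fetal growth genes 3 rose with all libraries, namely the imprinted genes Mest and Dlk1 and the chromatin protein gene Hmga2, and none fell. With median-of-ratios scaling the count was 1, and it was 0 without hindstomach replicate 1 and 0 without hindstomach replicate 2. Mest stood at 25.3 and 27.7 FPKM in the hindstomach against 0.684 and 0.632 in the forestomach (difference 4.05 ± 0.87, adjusted p = 0.0482, kept in 4 of 8). Dlk1 stood at 18.99 and 18.7 FPKM in the hindstomach against 0.701 and 0.903 in the forestomach (difference 3.46 ± 0.69, adjusted p = 0.0409, kept in 4 of 8). Hmga2 stood at 30.6 and 21.6 FPKM in the hindstomach against 0.554 and 3.46 in the forestomach (difference 3.34 ± 0.52, adjusted p = 0.0229, kept in 2 of 8). Mest and Dlk1 were low in both forestomach libraries alike. Against replicate 1 alone 14 rose and against replicate 2 alone 6. The imprinted RNA H19 stood at 6529 and 4738 FPKM in the hindstomach against 10.1 and 4137 in the forestomach. Igf2bp3, an RNA-binding protein of fetal tissues, stood at 30.0 and 24.5 FPKM in the hindstomach against 0.0151 and 15.0 in the forestomach. In both, the library labelled forestomach replicate 1 was the low one. In H19 the hindstomach differed from replicate 2 by 0.43 (adjusted p = 0.484).

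Smooth muscle genes were highest in forestomach replicate 1. The median log2(FPKM + 1) of 12 smooth muscle genes was 3.02 and 3.73 in the hindstomach against 8.18 and 1.86 in the forestomach. Of these genes 11 were lower in the hindstomach against replicate 1, 2 (Mylk and Synm) were higher against replicate 2, and none was called with all libraries. Their summed level was 127 and 247 FPKM in the hindstomach against 5179.6 and 96.9 in the forestomach. The actin Acta2 stood at 33.9 and 79.3 FPKM in the hindstomach against 1327 and 9.86 in the forestomach. The myosin Myh11 stood at 4.04 and 11.6 FPKM in the hindstomach against 237 and 2.61 in the forestomach. Of 22 mesenchymal genes 7 lay between the libraries, among them Barx1, the mesenchymal regulator of stomach fate (6.41 and 4.29 FPKM in the hindstomach against 28.9 and 0.256 in the forestomach). All 6 tested MHC class II genes were lower against replicate 1 and none was called with all libraries or against replicate 2. Cd74, their invariant chain, stood at 1.81 and 2.01 FPKM in the hindstomach against 92.0 and 0.0382 in the forestomach. The part that underlying mesenchyme, muscle or immune cells have in the levels of that library was not tested.

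Stress genes are given beside the isolation, Dispase and hand separation for the forestomach alone. Of 16 heat shock genes 5 fell (Hspb1, Cryab, Hspa1b, Hspa1a and Hspb8) and 2 rose (Hspd1 and Hspe1, the mitochondrial chaperonins), with 0 higher under median-of-ratios scaling. Without hindstomach replicate 1 or 2, 2 were lower and 0 higher, and without either intestine library 3 and 0. The small heat shock protein Cryab stood at 2.55 and 2.94 FPKM in the hindstomach against 78.9 and 186 in the forestomach (difference -5.03 ± 0.56, adjusted p = 0.00918, kept in 6 of 8). Hspb8 stood at 4.73 and 2.90 FPKM in the hindstomach against 30.5 and 55.6 in the forestomach (difference -3.16 ± 0.49, adjusted p = 0.0229, kept in 4 of 8). The inducible chaperone Hspa1a stood at 0.323 and 0.307 FPKM in the hindstomach against 12.5 and 13.96 in the forestomach, and its near-identical copy Hspa1b at 0.918 and 0.753 FPKM in the hindstomach and 23.5 and 27.2 in the forestomach. They were alike in the forestomach libraries and kept their calls with each library left out. Hspb1 and Cryab are also made by differentiating keratinocytes and muscle. Of 17 immediate early genes 4 fell (Dusp1, Egr3, Ier3 and Junb) and none rose, a count that was 0 without hindstomach replicate 1 and 0 without hindstomach replicate 2. Fos stood at 14.4 and 27.9 FPKM in the hindstomach against 36.3 and 15.9 in the forestomach. Jun stood at 49.8 and 54.5 FPKM in the hindstomach against 37.9 and 30.8 in the forestomach. Neither was called, and both were named after their values were seen.

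In signalling pathways few members passed, and none of the calls with all libraries named here stayed without either hindstomach library. Of all 12013 genes 4.76% were called higher and 1.47% lower, so a single call in such a list is not read as a result about the pathway. Of 10 Hedgehog genes 1 rose, the ligand Ihh, at 81.9 and 99.8 FPKM in the hindstomach against 13.1 and 5.35 in the forestomach (difference 3.27 ± 0.37, adjusted p = 0.00937, kept in 6 of 8). The ligand Shh stood at 19.9 and 23.1 FPKM in the hindstomach against 23.4 and 6.15 in the forestomach (adjusted p = 0.406). Of 28 Wnt genes 1 rose, the receptor Lgr5 of gland-base cells (3.61 and 4.36 FPKM in the hindstomach against 0.339 and 0.304 in the forestomach, difference 1.91 ± 0.21, adjusted p = 0.00801, kept in 6 of 8). Against forestomach replicate 2 alone 6 Wnt genes were lower, among them the ligand Wnt4, at 10.6 and 13.4 FPKM in the hindstomach against 15.6 and 268 in the forestomach. Wnt7b, also a ligand, stood at 0.399 and 0.202 FPKM in the hindstomach against 1.55 and 34.2 in the forestomach. Of 13 Notch genes none was called with all libraries and 7 were lower against replicate 2, and of 17 Bmp genes none was called with all libraries. The retinoid list gave 1 higher of 15, Lrat, which stores retinol as esters (7.19 and 7.69 FPKM in the hindstomach against 0.00660 and 0 in the forestomach, difference 3.07 ± 0.64, adjusted p = 0.0452, kept in 4 of 8), a call that also ended under median-of-ratios and quantile scaling. The EGF receptor list gave 1 lower of 8, the ligand Ereg (0.0950 and 0.0986 FPKM in the hindstomach against 1.60 and 2.35 in the forestomach, difference -1.43 ± 0.22, adjusted p = 0.0229, kept in 4 of 8). Of 7 Hox genes Hoxc8 fell (0.123 and 0.0274 FPKM in the hindstomach against 12.1 and 37.8 in the forestomach, difference -4.39 ± 0.64, adjusted p = 0.0199, kept in 4 of 8). Its neighbour Hoxc5 stood at 0.728 and 0.339 FPKM in the hindstomach against 2.76 and 46.7 in the forestomach. Hoxc4 stood at 2.25 and 1.77 FPKM in the hindstomach against 3.13 and 21.7 in the forestomach and Hoxc6 at 0.243 and 0.0483 FPKM in the hindstomach and 1.72 and 24.1 in the forestomach. These 3 were lower against replicate 2 alone (adjusted p = 2.91e-04, 0.00231 and 0.00163).

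**Figure D5:**
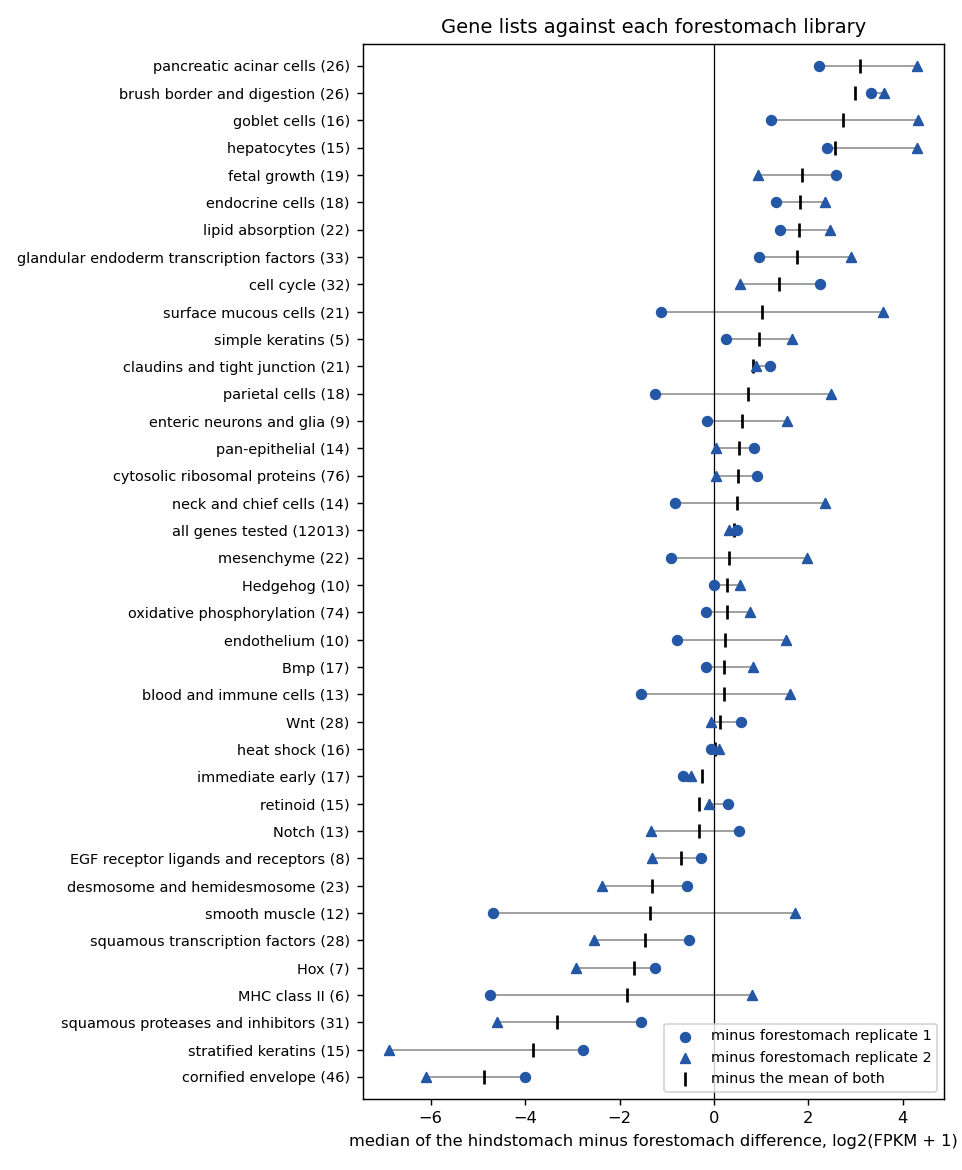
Median hindstomach minus forestomach difference of each gene list in log2(FPKM + 1), against forestomach replicate 1 (circles), replicate 2 (triangles) and their mean (bars), with the number of genes tested in parentheses. Cornified envelope genes lie left of 0 and brush border genes right of 0 against both libraries, while surface mucous, parietal, neck and chief, smooth muscle and MHC class II lists lie on opposite sides of 0.

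The lists thus fell into groups by whether the forestomach libraries agreed on the side, as the plot of list medians shows. The medians of cornified envelope genes were -4.01 and -6.09 against replicates 1 and 2, those of brush border genes 3.33 and 3.61, and those of all genes 0.49 and 0.32. Surface mucous genes had medians of -1.12 and 3.58, parietal genes -1.26 and 2.47, and smooth muscle genes -4.68 and 1.71. Hepatocyte genes, whose median log2(FPKM + 1) was 5.16 and 3.91 in the hindstomach against 0.18 and 0.08 in the forestomach, had 2.39 and 4.31 as median differences against replicates 1 and 2, and 9 of 15 called higher (6 with median-of-ratios scaling; 1 without hindstomach replicate 1 and 3 without hindstomach replicate 2). Among them Afp, alpha-fetoprotein, stood at 101 and 32.7 FPKM in the hindstomach against 0.398 and 0.0639 in the forestomach (difference 5.59 ± 0.58, adjusted p = 0.00683, kept in 8 of 8) and at 175 and 86.6 in the intestine. With the other scalings the medians of the Bmp, Hedgehog, Wnt, heat shock, immediate early, oxidative phosphorylation, immune, endothelial and mesenchymal lists changed sign, so no direction is given for them.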

How the data were processed

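The authors deposited a table of FPKM values per gene symbol. Alignment with STAR 2.4.2a to mm10 (GRCm38) is listed in the submitters' processing notes; what computed the FPKM, with which annotation and strand setting, is not stated there. Columns were matched to groups by name, and 4 columns match no sample listed and were not used. Without counts, depth is known only as a ratio between libraries. For log2(FPKM + 1) of 12013 genes, means of 4 tissues were fitted over 8 libraries with limma 3.58.1 in R 4.3.3 (mean-variance trend, 4 residual degrees of freedom, 3 without 1 forestomach library), and p-values were Benjamini-Hochberg adjusted over those genes. Tested on simulated data that kept each tissue's own spread, the fit made 231 false calls over 12013 genes, more than its threshold allows. Of 50 genes changed by 1 on the log2 scale it recovered 24%, and of 50 changed by 5 it recovered 94%. When the forestomach was made to vary like the hindstomach, 5 false calls were made. The comparison and the gene lists were chosen with earlier results of these data known. The 12 leading genes per direction had a mean of 10 FPKM or more where higher, libraries of both tissues that did not overlap, and the largest smallest difference between libraries. Each list gave up to 4 called members and 3 lying between the forestomach libraries, and 8 came from each group of genes lying between them. Any other gene was named after its values were seen. Alternatives were other pseudocounts, filters, scalings, spread estimates, replicate blocks and leaving out each library.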

Additional observations from a re-analysis of the deposited data

How the results depend on the processing

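With all 8 libraries 572 genes were higher and 176 lower. Leaving out 1 library in turn gave 64 to 2380 higher and 26 to 943 lower genes: 64 and 26 without hindstomach replicate 1, 76 and 27 without hindstomach replicate 2, 1778 and 943 without forestomach replicate 1, 2380 and 749 without forestomach replicate 2, 150 and 48 or 50 without intestine replicate 1 or 2, and 331 and 335 higher and 90 lower without colon replicate 1 or 2. The 4 stomach libraries alone gave 86 and 21. The replicate numbers did not pair the libraries in the same way across tissues. The r of same-numbered deviations was -0.259 between hindstomach and forestomach, 0.279 between hindstomach and intestine and -0.570 between intestine and colon. A replicate block gave 270 higher and 97 lower genes over 8 libraries. Over the 4 stomach libraries it gave 0 and 0 by limma, with 1194 genes at an unadjusted p under 0.05. Higher acinar genes numbered 12 with the block over 8 libraries and 6 without it. The crossed pairing, added after the data were seen, gave 13 and 14. A pseudocount of 5 gave 299 and 80, no filter beyond FPKM above 0 gave 395 and 117 of 19482 genes, median-of-ratios scaling 230 and 245, quantile normalization 282 and 335, equal totals 1102 and 133, and a 4-fold minimum 259 and 109. The other settings stayed within 1.5 times of both counts. Of the counts placed by 2-fold without a test, genes higher than both forestomach libraries numbered 372 at a pseudocount of 5, 472 after median-of-ratios scaling, 475 after quantile normalization and 1205 at equal totals, and genes lower than both numbered 148 at a pseudocount of 5, 214 at a filter of 5 FPKM, 574 after quantile normalization and 243 at equal totals. Genes between the libraries with forestomach replicate 1 on top numbered 429 with a pseudocount of 0.1, 77 with 5, 146 with the filter of 5 FPKM and 163 with equal totals, and those with replicate 2 on top 118, 24 and, with equal totals, 152. None of the 74 named called genes changed sign under these settings, which was largely fixed in advance. In every called gene both hindstomach libraries lay on one side of both forestomach libraries, so leaving out a stomach library could not turn the sign. Leaving out an intestine or colon library does not alter the difference. Genes lying between the forestomach libraries change sign with the library used by definition. Of the 74, 23 were still called without hindstomach replicate 1, 25 without hindstomach replicate 2, 32 with the stomach libraries alone and 67 with median-of-ratios scaling; the cause was not tested. Low FPKM values carry few reads, which limits the genes near 1 FPKM.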
